A study of Zea mays with 14 samples.

Results

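The transcripts of 4 maize genes, 2 hemoglobins and 2 alcohol dehydrogenases, were followed through 14 RNA-seq libraries of maize seedlings aged 3 days. The genes are Hb2 (GRMZM2G168898), Hb1 (GRMZM2G067402), adh1 (GRMZM2G442658) and adh2 (GRMZM2G098346), 4 of the 39305 gene IDs counted in each library. They were taken by ID, and they had been proposed with their levels in these libraries already known, Hb2 among the largest differences between root hair and root of B73. Their fold changes are therefore given as descriptions with a standard error (SE) and without a p-value.

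The 14 libraries form 7 groups of 2. A zmlrl5 set of 8 libraries holds zmlrl5 knock down root hair and wild type root hair, both labelled as the inbred line W22, and zmlrl5 knock out root and wild type root, both labelled B73. A tissue set of 6 libraries holds root hair, root and aerial seedling of wild type B73. Hairs were scraped from frozen seedlings, and by the protocol, which every sample carries, the root samples are what the scraping left. In the zmlrl5 set the titles state the scraping for wild type root and not for zmlrl5 root. W22 is the cultivar label's word for the root hair samples, although their growth protocol says B73. The sources used here do not give the allele behind either mutant or the number of lines, and the zmlrl5 transcript was not analysed here, so the mutant labels were not checked against it.

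Plant hemoglobins of the non-symbiotic kind bind oxygen very tightly and are known for removing nitric oxide, with nitrate as the product, in cells short of oxygen. Alcohol dehydrogenase reduces acetaldehyde to ethanol and returns NAD+ to glycolysis, the last step of ethanolic fermentation. In maize, adh1 and adh2 are classical genes of the response of roots to flooding, and sucrose synthase, enolase and pyruvate decarboxylase act upstream of them in the same route.

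Total counts ran from 12336633 to 27788359 per library, and levels are given as CPM (reads of a gene relative to the scaled size of its library) after TMM scaling over the 14 libraries, with factors of 0.6116 to 1.449. A count of 3, taken as the detection floor, equals 0.0792 to 0.222 CPM. Libraries of 1 group correlated at 0.980 to 0.990 (Pearson's r of log2 CPM over genes, which are no replicates). The summed level of 3 root hair genes (rth3, GRMZM2G426953 and GRMZM2G436299) was 646 to 1579 CPM in the 6 root hair libraries, against 42.5 to 69.7 CPM in the 8 libraries of root and aerial seedling. The 9 genes of green shoot (the cab, lhcb and rbcS genes) summed to 3.97 to 88.2 CPM in the 12 libraries of root hair and root, highest in zmlrl5 hair of W22, against 2304 to 2322 CPM in aerial seedling. The root cap gene RCP1 was at 0.377 to 0.466 CPM in B73 wild type root of the zmlrl5 set, against 81.4 to 86.2 CPM in B73 root of the tissue set, so the roots of the 2 sets differ in a tissue marker. The 4 genes of dividing cells (MCM6, MCM7, pcna1 and pcna2) summed to 98.1 to 100.1 CPM in B73 wild type root of the zmlrl5 set and to 137.1 to 137.7 CPM in B73 root of the tissue set.

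The 4 genes took different courses through the 7 groups. Both hemoglobins were highest in B73 root hair, and on the TMM scale adh2 was higher, and adh1 lower, in all 6 root hair libraries than in any other library. A lower level in a bulk sample can come from fewer cells of a type or from less RNA per cell, and these cannot be told apart here.

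**Figure D1:**
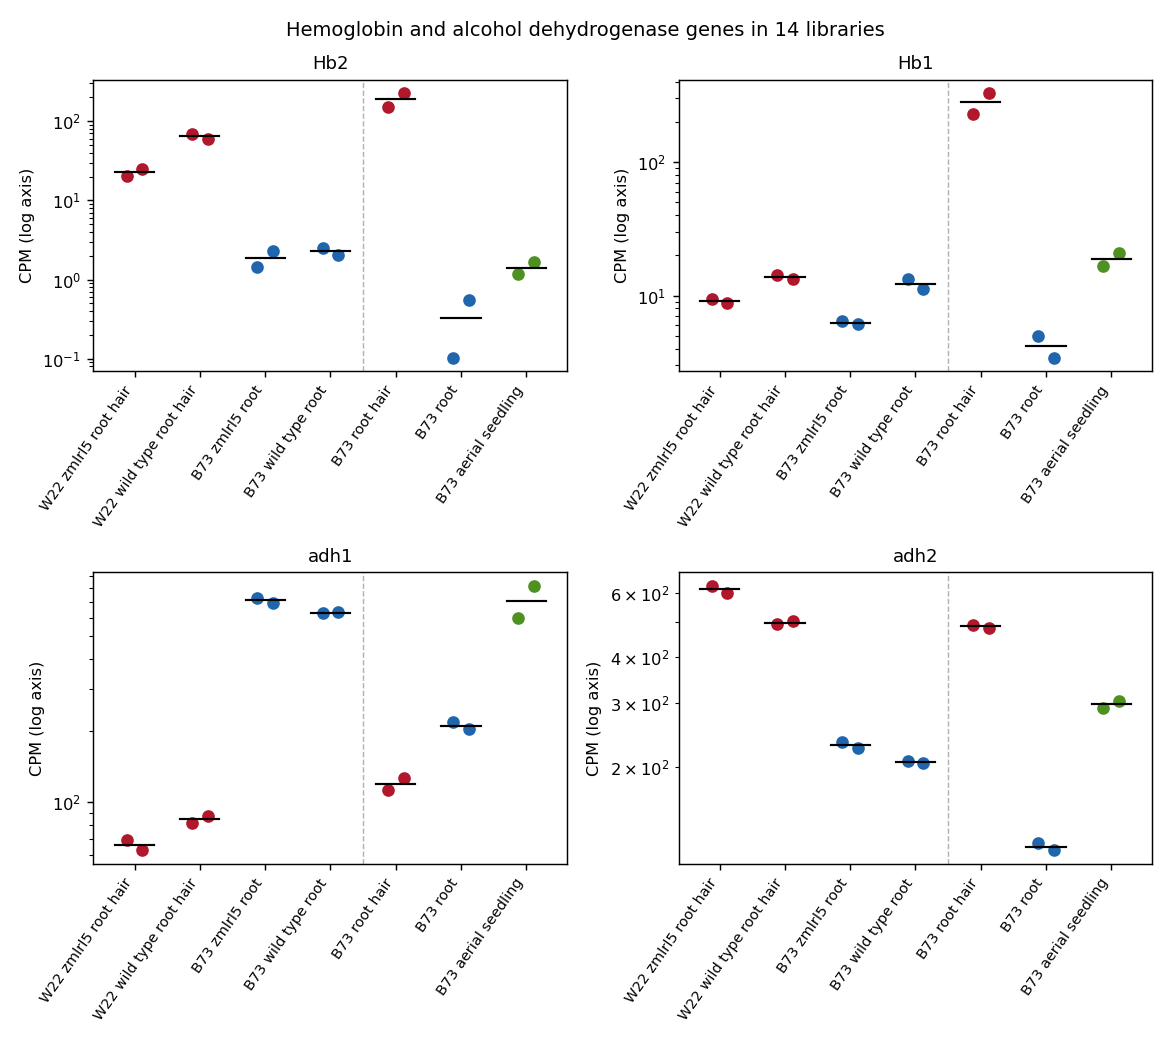
Level of Hb2, Hb1, adh1 and adh2 in each library (points, CPM on a log axis) with the mean of each group (black bars), for root hair (red), root (blue) and aerial seedling (green). The dashed line separates the zmlrl5 set on the left from the tissue set on the right. Hb2 stands at 20.6 CPM or more in root hair and at 2.50 CPM or less elsewhere, while adh1 is lowest in the 3 root hair groups.

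Hb2 was a transcript of root hair in all 3 root hair groups. The zmlrl5 libraries of W22 held 20.6 and 25.1 CPM of it, and those of wild type W22 held 69.7 and 59.9 CPM. In B73 root hair it reached 151 and 227 CPM. It was low elsewhere: 1.46 and 2.32 CPM in B73 zmlrl5 root, 2.50 and 2.05 CPM in B73 wild type root, 0.103 and 0.554 CPM in B73 root of the tissue set, and 1.17 and 1.64 CPM in aerial seedling. By group mean the order was B73 root hair (189 ± 54.0 CPM, SD, n = 2), W22 wild type root hair (64.8 ± 6.89), W22 zmlrl5 root hair (22.9 ± 3.21), B73 wild type root (2.28 ± 0.319), B73 zmlrl5 root (1.89 ± 0.611), aerial seedling (1.41 ± 0.333) and B73 root (0.329 ± 0.319). B73 wild type root overlapped with zmlrl5 root, and zmlrl5 root with aerial seedling. The other neighbours in this order did not overlap. The lowest of these values rest on few reads, with 2 and 21 counts in the 2 libraries of B73 root.

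Hb1, the other hemoglobin, was high in B73 root hair only, among these 7 groups. It was at 230.1 and 329 CPM there, and at 20.9 CPM or less in each of the other 12 libraries. W22 zmlrl5 root hair held 9.39 and 8.72 CPM and W22 wild type root hair 14.1 and 13.2 CPM. B73 zmlrl5 root held 6.41 and 6.12 CPM, against 13.2 and 11.3 CPM in B73 wild type root. B73 root of the tissue set had 4.95 and 3.43 CPM and aerial seedling 16.7 and 20.9 CPM. The means, in falling order, were 279 ± 69.8 CPM in B73 root hair, 18.8 ± 2.92 in aerial seedling, 13.7 ± 0.665 in W22 wild type root hair, 12.2 ± 1.38 in B73 wild type root, 9.05 ± 0.473 in W22 zmlrl5 root hair, 6.27 ± 0.204 in B73 zmlrl5 root and 4.19 ± 1.08 in B73 root. W22 wild type root hair and B73 wild type root overlapped, and on total counts without TMM their order turned, with means of 10.4 and 16.9 CPM. The order of W22 zmlrl5 root hair and B73 zmlrl5 root turned as well, at 7.17 and 8.30 CPM.

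The alcohol dehydrogenase adh1 was a transcript of root and shoot. Its level was 726 and 690 CPM in B73 zmlrl5 root, and 626 and 635 CPM in B73 wild type root. B73 root of the tissue set had 217 and 204 CPM, against 596 and 818 CPM in aerial seedling. Root hair had the least: 69.3 and 62.7 CPM in zmlrl5 hair of W22, 81.9 and 87.9 CPM in its wild type hair, and 113 and 127 CPM in B73 root hair. The means were 708 ± 25.2 CPM in B73 zmlrl5 root, 707 ± 157 in aerial seedling, 630.2 ± 6.26 in B73 wild type root, 210.4 ± 9.30 in B73 root, 119.9 ± 10.3 in B73 root hair, 84.9 ± 4.25 in wild type root hair of W22 and 66.0 ± 4.62 in zmlrl5 root hair of W22. Aerial seedling overlapped with its neighbours on either side, and no other neighbours overlapped. On total counts without TMM the order of aerial seedling and B73 wild type root turned. B73 wild type root was then at 872 and 864 CPM, against 613 and 840 CPM in aerial seedling, without overlap.

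The second alcohol dehydrogenase, adh2, was highest in root hair and varied least of the 4. It was at 630.1 and 603 CPM in zmlrl5 root hair of W22, 494 and 502 CPM in its wild type root hair, and 491 and 482 CPM in B73 root hair. Root had 234 and 226 CPM in B73 zmlrl5, 207 and 205 CPM in B73 wild type and 123 and 118 CPM in the tissue set. Aerial seedling had 290 and 304 CPM. From the mean of 617 ± 19.2 CPM in W22 zmlrl5 root hair down to that of 120.3 ± 3.72 CPM in B73 root, no neighbours in the order overlapped. The scale matters for this gene: on total counts without TMM, B73 root hair at 313 CPM stood next to aerial seedling at 305 CPM and B73 zmlrl5 root at 304 CPM.

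The balance of reads within a pair does not depend on scaling, because both counts come from 1 library. Of the reads of adh1 and adh2 together, adh2 took 90.1% and 90.6% in zmlrl5 root hair of W22, 85.8% and 85.1% in its wild type root hair, and 81.3% and 79.1% in B73 root hair. It took 24.4% and 24.6% in B73 zmlrl5 root, 24.9% and 24.4% in B73 wild type root, 36.2% and 36.6% in B73 root of the tissue set, and 32.7% and 27.1% in aerial seedling. All 6 root hair libraries thus lay at 79.1% or more and all 8 others at 36.6% or less, and the widest of the exact binomial 95% intervals, in B73 root replicate 1, ran from 35.0% to 37.3%.

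For the hemoglobin pair the split by tissue was less even. Hb2 took 68.7% and 74.2% of the reads of Hb1 and Hb2 in zmlrl5 root hair of W22, against 83.1% and 81.9% in W22 wild type root hair. In B73 root hair, where Hb1 was high as well, it took 39.6% and 40.9%. It took 18.5% and 27.5% in B73 zmlrl5 root and 15.9% and 15.4% in B73 wild type root. In the tissue set its share was 2.04% and 13.9% in B73 root, against 6.54% and 7.30% in aerial seedling. The 2.04% is 2 of 98 reads with an interval of 0.248% to 7.18%, and the 13.9% is 21 of 151 reads with 8.82% to 20.5%, and these 2 intervals do not overlap. All intervals cover counting error only, and how well W22 reads match the gene models of Hb1 and Hb2 was not tested.

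**Figure D2:**
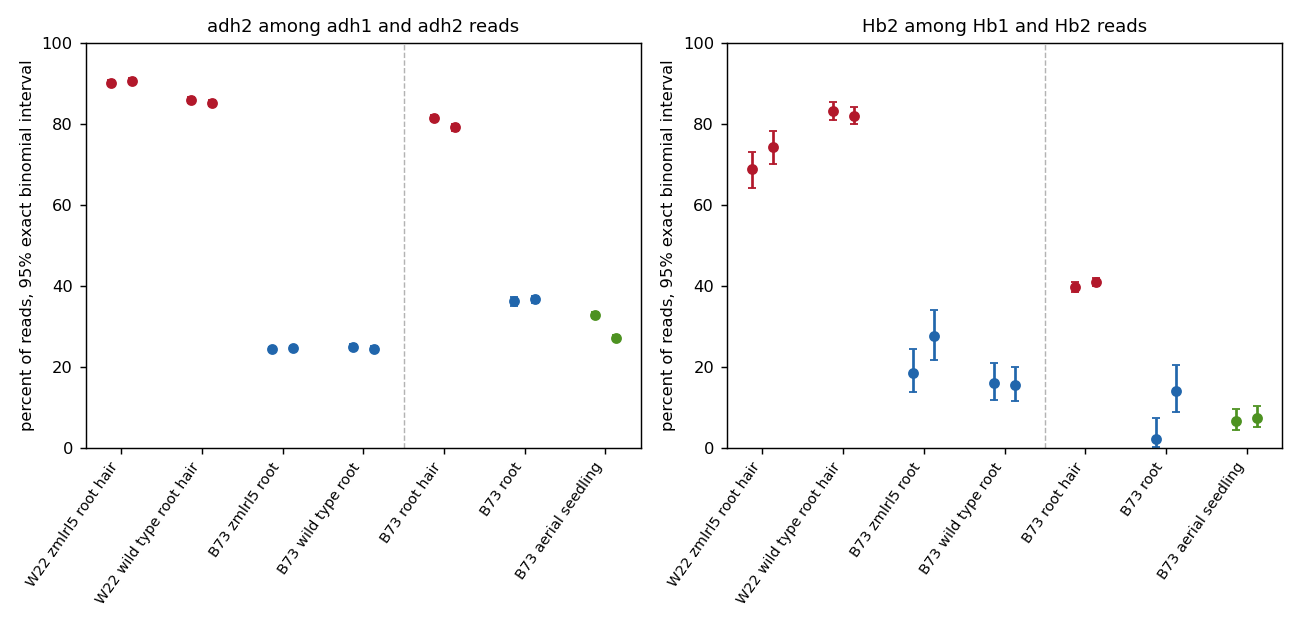
Share of adh2 among the reads of adh1 and adh2 (left) and of Hb2 among the reads of Hb1 and Hb2 (right), in percent per library with exact binomial 95% intervals, for root hair (red), root (blue) and aerial seedling (green). The adh2 share is 79.1% to 90.6% in root hair and 24.4% to 36.6% elsewhere, and the Hb2 share is 68.7% to 83.1% in W22 root hair and 39.6% to 40.9% in B73 root hair.

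Root hair of the tissue set was first compared with root of that set, both of B73. Hb2 averaged 189 CPM in root hair, against 0.329 CPM in root, a log2 fold change of 8.93 ± 0.39 (SE), or 487-fold, which was rank 17 from the top of 25551 genes tested. That size rests on the few reads in root: it was 10.76 without root replicate 2 and 8.40 without root replicate 1. Against the 2 counts of root replicate 1 alone, the level in root hair was 1830 times as high, with a 95% counting interval of 506 to 15100. Hb1 averaged 279 CPM in root hair, against 4.19 CPM in root, a log2 fold change of 6.09 ± 0.29, or 68.3-fold, at rank 276. The alcohol dehydrogenases went opposite ways, with adh2 at 2.03 ± 0.22 (4.09-fold higher in root hair) and adh1 at -0.80 ± 0.22 (1.74-fold lower). The groups did not overlap for any of the 4 genes. The share of all genes without overlap is not given, so nothing is read from a lack of overlap here or below. By the call rule used throughout, an adjusted p under 0.05 in edgeR's quasi-likelihood test, 3 of the 4 genes were called higher and 1 lower, where 34.0% of all genes tested were called higher and 39.2% lower. Nothing is read from these counts, since the genes were chosen on this contrast. The median over all genes was -0.14, and with upper-quartile scaling, which moved that median to -0.46, the folds were 8.60, 5.77, -1.12 and 1.70 for Hb2, Hb1, adh1 and adh2. On total counts without TMM, adh1 averaged 76.8 CPM in root hair, against 290 CPM in root, and adh2 averaged 313 CPM in root hair, against 166 CPM in root.

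B73 root hair also had more of both hemoglobins and of adh2, and less adh1, than aerial seedling on the TMM scale. The log2 fold change was 7.10 ± 0.35 for Hb2 (137-fold), 3.92 ± 0.26 for Hb1 (15.1-fold), 0.74 ± 0.21 for adh2 (1.67-fold) and -2.54 ± 0.23 for adh1 (5.80-fold lower). Of the 4 genes 3 were called higher and 1 lower, beside 34.2% of all genes called higher and 45.0% lower, and no groups overlapped on that scale. On total counts without TMM, adh2 overlapped, at 330 and 295 CPM in root hair and 298 and 312 CPM in aerial seedling. This comparison shares the root hair libraries with the one above, and the next shares the root and aerial seedling libraries, so the values stand side by side and are not independent.

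B73 root had less of all 4 transcripts than aerial seedling. The log2 fold change was -1.83 ± 0.44 for Hb2, -2.18 ± 0.26 for Hb1, -1.74 ± 0.22 for adh1 and -1.30 ± 0.21 for adh2, between 2.45-fold and 4.53-fold lower. All 4 were called lower, beside 32.0% of all genes called lower and 28.5% called higher, and no groups overlapped. The balance over all genes turned with upper-quartile scaling, at 8896 genes higher and 7145 lower, in place of 7293 and 8182. For Hb2 the value was -3.66 without root replicate 2 and -1.31 without root replicate 1, and the level in aerial seedling was 13.5 times that in root replicate 1, with a counting interval of 3.55 to 114.

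**Figure D3:**
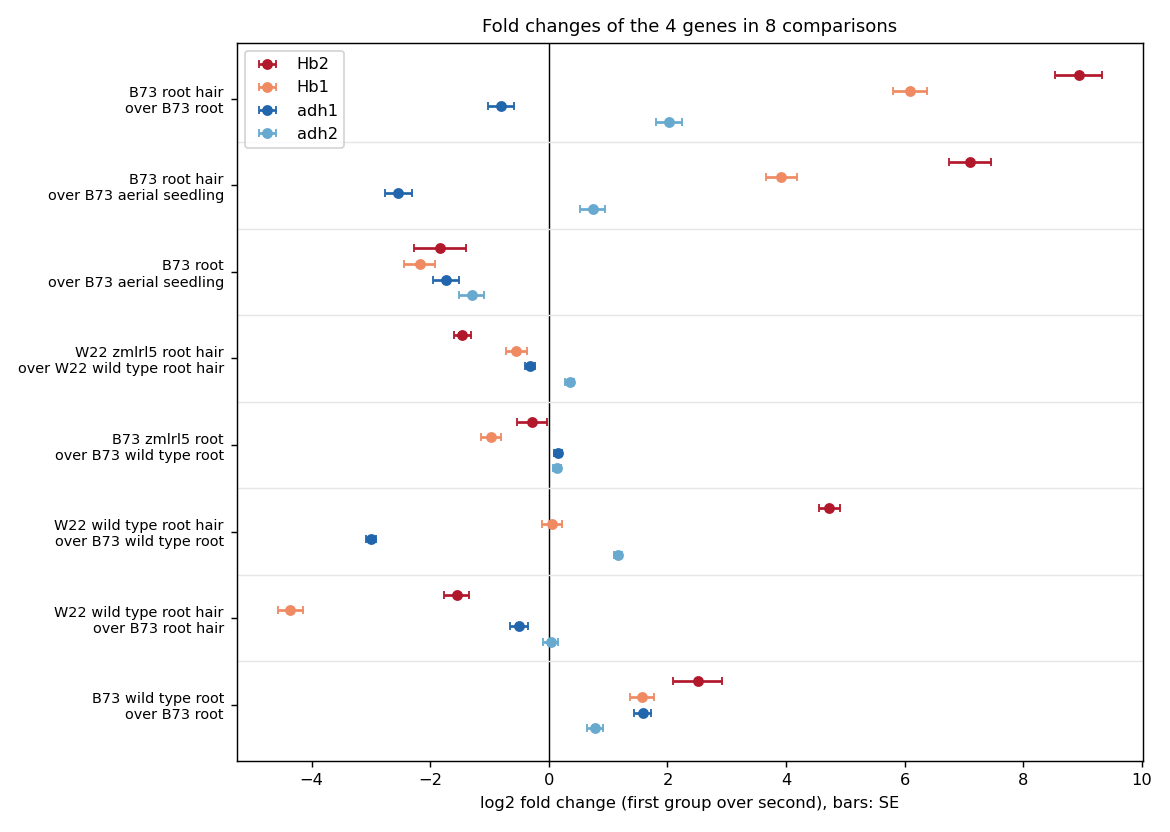
Log2 fold change of Hb2, Hb1, adh1 and adh2 (points, with bars of 1 SE) in the 8 comparisons, each the first group over the second. The hemoglobins reach 8.93 and 6.09 in B73 root hair over B73 root, and Hb1 is at 0.05 in W22 wild type root hair over B73 wild type root.

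The zmlrl5 root hair libraries had less Hb2, Hb1 and adh1, and more adh2, than wild type root hair of W22. Hb2 averaged 22.9 CPM in zmlrl5 root hair and 64.8 CPM in wild type root hair, a log2 fold change of -1.46 ± 0.14 (2.75-fold lower). Hb1 was at -0.55 ± 0.18 (1.46-fold lower), adh1 at -0.32 ± 0.08 (1.25-fold lower) and adh2 at 0.35 ± 0.07 (1.27-fold higher). No groups overlapped for any of the 4 genes, from which nothing is read, as above. Of the 4, 1 was called higher and 3 lower, beside 10.1% of all 25303 genes called higher and 12.4% lower, with a median of -0.01 over all genes. The calls of Hb1, adh1 and adh2 were lost in a fit of all 14 libraries, at -0.59, -0.36 and 0.31. That of Hb1 was also lost without W22 wild type root hair replicate 1, at -0.55, and without W22 zmlrl5 root hair replicate 2, at -0.54. The root hair genes listed above summed to 646 to 718 CPM in zmlrl5 root hair and to 744 to 881 CPM in wild type root hair, and the green shoot genes to 32.9 to 88.2 CPM in zmlrl5 root hair and to 21.2 to 35.3 CPM in wild type root hair. RCP1 was at 73.2 to 76.2 CPM in zmlrl5 root hair and at 99.2 to 105.5 CPM in wild type root hair. The dividing cell genes overlapped, at 12.1 to 12.8 CPM in zmlrl5 root hair and 10.6 to 13.6 CPM in wild type root hair. The part of these markers in the differences was not tested.

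In root of B73, Hb1 was the 1 gene of the 4 that was called. It averaged 6.27 CPM in zmlrl5 root and 12.2 CPM in wild type root, a log2 fold change of -0.97 ± 0.17 (1.96-fold lower), and the value stayed between -1.08 and -0.86 when each library was left out in turn. Hb2 overlapped between the groups, at -0.28 ± 0.25. For adh1 the fold was 0.15 ± 0.07 and for adh2 0.14 ± 0.07, both without overlap between the groups and neither called. Here 4.27% of all genes were called higher and 4.09% lower, with a median of 0.02. The titles give scraping for wild type root alone, and the root hair genes summed to 51.6 to 61.8 CPM in zmlrl5 root and to 49.7 to 55.2 CPM in wild type root, and GRMZM2G436299 was at 0 in both zmlrl5 libraries and at 2.27 CPM in wild type root. The green shoot genes summed to 18.25 to 20.8 CPM in zmlrl5 root and to 5.30 to 7.62 CPM in wild type root. The dividing cell genes summed to 80.7 to 83.05 CPM in zmlrl5 root and to 98.1 to 100.1 CPM in wild type root. RCP1 was at 0.0400 to 0.0729 CPM in zmlrl5 root and at 0.377 to 0.466 CPM in wild type root, and the part of these markers in the fold of Hb1 was not tested.

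The zmlrl5 effect in W22 root hair minus that in B73 root was -1.18 ± 0.29 on the log2 scale for Hb2. The same difference was 0.43 ± 0.25 for Hb1, -0.47 ± 0.11 for adh1 and 0.21 ± 0.10 for adh2. The root hair and root materials differ in tissue, in inbred line and in the kind of mutant, and these cannot be told apart.

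Within the zmlrl5 set, wild type root hair could be set against wild type root, though the first is labelled W22 and the second B73. Tissue and inbred line cannot be told apart in this comparison. Hb2 averaged 64.8 CPM in W22 root hair and 2.28 CPM in B73 root, a log2 fold change of 4.73 ± 0.18 (26.6-fold). Hb1 did not share this, with a fold of 0.05 ± 0.17 and overlapping groups. The fold was -3.00 ± 0.08 for adh1 (8-fold lower in root hair) and 1.17 ± 0.07 for adh2 (2.25-fold higher). Of the 4 genes 2 were called higher and 1 lower, beside 36.5% of all genes called higher and 44.0% lower. The median over all genes was -0.23. The log2 fold change of root hair over root in the tissue set minus that between these wild types was 4.05 ± 0.46 for Hb2, 5.93 ± 0.29 for Hb1, 2.08 ± 0.21 for adh1 and 0.74 ± 0.18 for adh2. Library set and the line of the root hair change together in that difference. RCP1 was at 99.2 to 105.5 CPM in W22 wild type root hair and at 0.377 to 0.466 CPM in B73 wild type root. The dividing cell genes summed to 10.6 to 13.6 CPM in that root hair and to 98.1 to 100.1 CPM in that root. The part of these markers was not tested.

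Of the 4 genes, Hb1 differed most between root hair of the 2 wild types. It averaged 13.7 CPM in W22 root hair and 279 CPM in B73 root hair, a log2 fold change of -4.36 ± 0.21 (20.5-fold lower in W22). Hb2 was at -1.55 ± 0.21 (2.92-fold lower) and adh1 at -0.50 ± 0.15 (1.41-fold lower), and the call of adh1 was lost without B73 root hair replicate 2, at -0.42, and without W22 wild type root hair replicate 1, at -0.45. The fold of adh2 was 0.03 ± 0.13, not called, although its libraries just failed to overlap. The other 3 of the 4 genes were called lower, beside 28.1% of all 27316 genes called higher and 25.9% lower. The inbred line and the library set change together here and cannot be told apart. W22 reads were counted on the same gene IDs as B73 reads, and any loss of them was not tested. RCP1 was at 99.2 to 105.5 CPM in W22 root hair and at 25.2 to 25.8 CPM in B73 root hair. The root hair genes summed to 744 to 881 CPM in W22 root hair and to 1154 to 1579 CPM in B73 root hair, with rth3 at 136.6 CPM in W22 and 385.8 CPM in B73, and the green shoot genes to 21.2 to 35.3 CPM in W22 root hair and to 8.86 to 14.6 CPM in B73 root hair. The part of these markers in the result was not tested.

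Both wild type roots are labelled B73 and differ by library set, and all 4 genes were higher in the zmlrl5 set. The log2 fold change of B73 wild type root over B73 root of the tissue set was 2.51 ± 0.41 for Hb2, 1.57 ± 0.21 for Hb1, 1.58 ± 0.15 for adh1 and 0.78 ± 0.13 for adh2, or 1.71-fold to 5.68-fold. All 4 were called higher, beside 27.4% of all genes called higher and 22.1% lower, with a median of 0.11, and no groups overlapped. The balance over all genes turned with DESeq2, at 5828 genes higher and 6480 lower, in place of 7486 and 6039. For Hb2 the value was 4.36 without B73 root replicate 2 and 2.01 without B73 root replicate 1, and against the 2 counts of replicate 1 the level was 21.7 times as high with a counting interval of 5.84 to 182. The root cap and dividing cell genes given above also differ between these roots, and their part was not tested.

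Other genes of the route, and of enzyme families near it, were taken from a list of 35 named genes. They were matched by symbol and chosen by role, with earlier results known. The list held 3 sucrose synthases, 12 genes of glycolysis, 8 listed under fermentation and 12 aldehyde dehydrogenases. A match by symbol does not show that a gene acts in the route. Entries named fdh1 and ALDH12, for instance, were not checked for a role between sucrose and ethanol. In B73 root hair over B73 root, 13 of the 34 tested were called higher and 13 lower, beside 34.0% of all genes called higher and 39.2% lower, with a median log2 fold change of -0.05 beside -0.14 over all genes. Members of 1 enzyme family went in opposite directions. Of the sucrose synthases, which split sucrose at the entry of the route, sh1, picked after its value was seen, averaged 2907 ± 81.5 CPM in root hair, against 316 ± 22.7 CPM in root, a log2 fold change of 3.22 ± 0.23 (adjusted p = 5.52e-15, edgeR's quasi-likelihood test with Benjamini-Hochberg adjustment, as for each adjusted p below). Its relative sus1 averaged 5.91 ± 0.631 CPM in root hair, against 1274 ± 47.6 CPM in root, at -7.74 ± 0.29 (adjusted p = 6.14e-22, edgeR). The 2 entries named alt at the IDs GRMZM2G088028 and GRMZM2G088018 were near absent from root hair. GRMZM2G088028 had 0 counts in root hair, against 216 in root, at least 43.2-fold lower against 3 counts over the group, and GRMZM2G088018 had 1 count in root hair, against 327 in root, a ratio of 196 with a counting interval of 35.0 to 7780.

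The genes listed under fermentation were split as well, and those named in this paragraph were picked after their values were seen. The gene for pyruvate decarboxylase pdc3, whose product acetaldehyde is the substrate of alcohol dehydrogenase, was at 21.3 CPM in root hair, against 469 CPM in B73 root (-4.45 ± 0.24, adjusted p = 2.56e-18, edgeR). Its level thus went with that of adh1 in direction and against that of adh2. LDH, lactate dehydrogenase, was at 350 CPM in root hair, against 102 CPM in B73 root (1.79 ± 0.22, adjusted p = 4.97e-09, edgeR). Of the glycolysis genes 5 were called higher and 2 lower, among them the enolase eno1 at 1.58 ± 0.23 and GAPC1, a cytosolic glyceraldehyde-3-phosphate dehydrogenase, at -1.48 ± 0.22. With upper-quartile scaling these counts were 4 higher and 3 lower. Of the 11 aldehyde dehydrogenases tested 4 were called higher and 7 lower, with rf2, a mitochondrial aldehyde dehydrogenase known as a fertility restorer, at 2.22 ± 0.22. Over all genes tested 34.0% were called higher and 39.2% lower, and nothing is read from the counts of these lists.

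**Figure D4:**
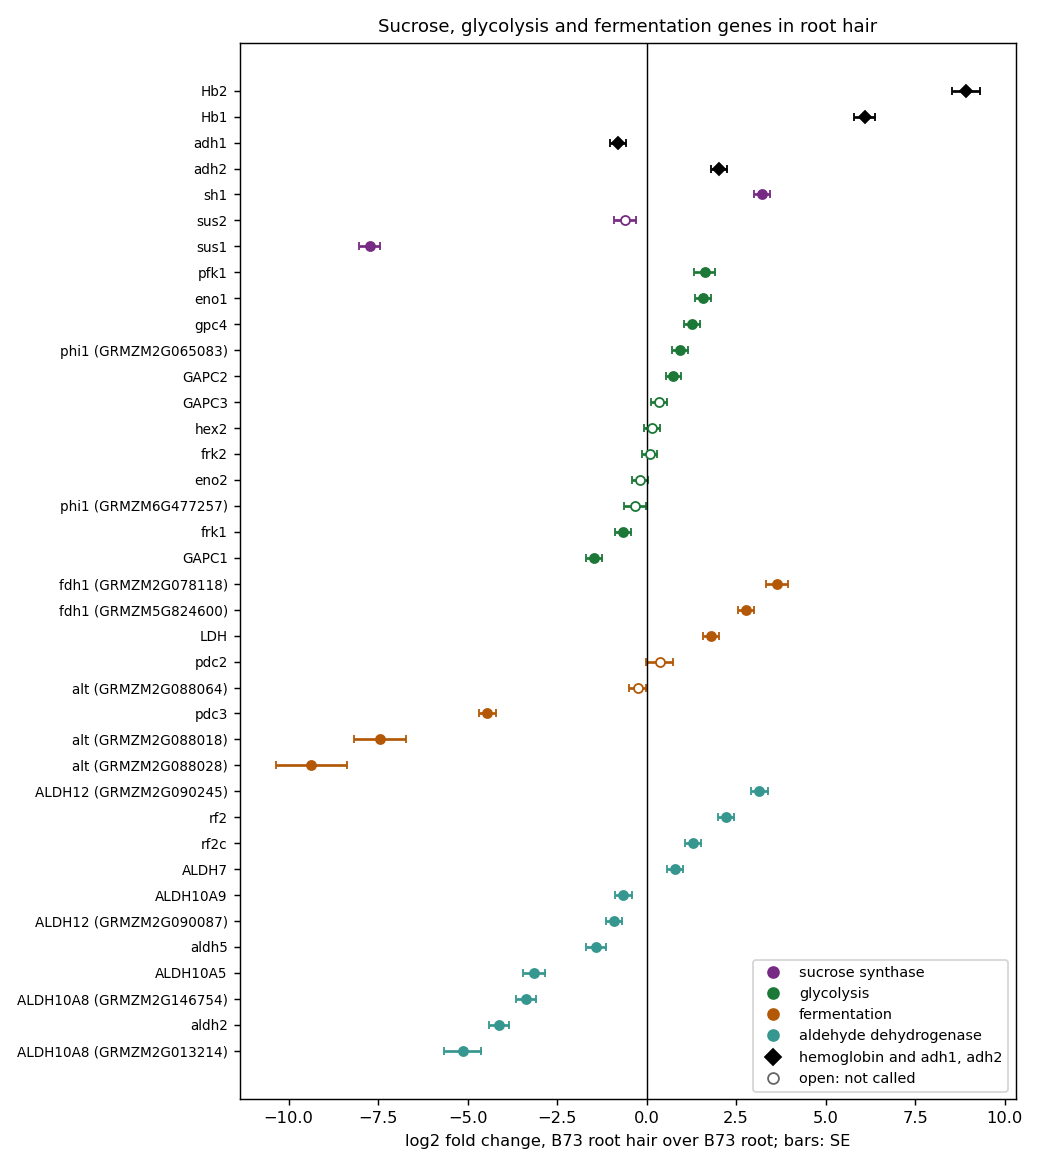
Log2 fold change, B73 root hair over B73 root, with bars of 1 SE. Diamonds are Hb2, Hb1, adh1 and adh2. Circles are the 34 tested genes listed under sucrose synthase, glycolysis, fermentation and aldehyde dehydrogenase, coloured by list, open where not called. The list spreads to both sides of 0, from sh1 at 3.22 to sus1 at -7.74 among the sucrose synthases. The fitted value of alt (GRMZM2G088028) rests on 0 counts in root hair.

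In the other comparisons of the tissue set the list was as divided, with 12 of 34 called higher and 14 lower in B73 root hair over aerial seedling, where 34.2% of all genes were called higher and 45.0% lower. In B73 root over aerial seedling 11 were called higher and 11 lower, where 28.5% of all genes were called higher and 32.0% lower. The largest of these folds were -8.03 for sus1 and -7.18 for aldh2 (GRMZM2G125268) in root hair over aerial seedling. In root over aerial seedling they were 5.83 for alt (GRMZM2G088018), between 5.23 and 6.86 without either library of aerial seedling, and -5.11 for pdc2, a pyruvate decarboxylase at 1.08 CPM in root and 36.8 CPM in aerial seedling.

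In W22 zmlrl5 root hair over wild type root hair, 2 of 35 list genes were called higher and 13 lower, where 10.1% of all genes were called higher and 12.4% lower, with a median of -0.14 beside -0.01 over all genes. Of the 12 glycolysis genes 7 were called lower, beside the same 12.4%, and the others were not called. The genes that follow, save the alt entry, were picked after their values were seen. The sucrose synthase sh1 was at 581 ± 37.2 CPM in zmlrl5 root hair and 1385 ± 6.77 CPM in wild type root hair (-1.21 ± 0.07, adjusted p = 1.54e-14, edgeR), in the same direction as Hb2. GAPC1 was at -0.68 ± 0.08 and GAPC2 at -0.64 ± 0.07. The decarboxylase pdc3 was at 7.42 CPM in zmlrl5 root hair and 14.7 CPM in wild type root hair (-0.93 ± 0.13, adjusted p = 1.15e-06, edgeR). LDH was at 0.07 ± 0.07, not called. The alt entry GRMZM2G088028 was called higher from 6 counts in zmlrl5 root hair and 0 in wild type root hair, at least 2.24-fold, and the call was lost without either wild type library or without zmlrl5 replicate 1, with adjusted p of 0.0892 to 0.143 in edgeR.

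In B73 zmlrl5 root over wild type root, 4 of 35 list genes were called higher and 6 lower, where 4.27% of all genes were called higher and 4.09% lower. The largest was the aldehyde dehydrogenase gene ALDH12 (GRMZM2G090245), at 271 CPM in zmlrl5 root and 586 CPM in wild type root (-1.13 ± 0.07, adjusted p = 5.63e-14, edgeR). It was followed by aldh5 at 0.92 ± 0.18 and by phi1 (GRMZM6G477257), named for phosphohexose isomerase, at 0.44 ± 0.12. The call of phi1 was lost without wild type root replicate 1, at 0.33, and without zmlrl5 root replicate 2, at 0.38. Chosen after its value was seen, sh1 was at -0.15 ± 0.07, not called.

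Across the wild types, W22 root hair over B73 root gave 17 of 35 list genes higher and 15 lower, with 9 of the 12 glycolysis genes higher and 2 lower, where 36.5% of all genes were called higher and 44.0% lower. The alt entry GRMZM2G088028 had 0 counts in W22 root hair and 335 in B73 root, at least 86.6-fold lower. GRMZM2G088018, the other alt entry, had 1 count in W22 root hair and 768 in B73 root, a ratio of 595 with a counting interval of 107 to 23500. The aldehyde dehydrogenase rf2c was at 2.62 CPM in W22 root hair, against 506 CPM in B73 wild type root (-7.67 ± 0.12). Like Hb1, rf2c was low in W22 root hair and high in B73 root hair, at 2.62 CPM in W22 and 534 CPM in B73 (-7.65 ± 0.22, adjusted p = 1.01e-20, edgeR). Unlike Hb1, rf2c stood at 219 to 635 CPM in the other B73 groups too, and at 1.34 CPM in W22 zmlrl5 root hair. Between the wild type root hairs sus1 went the other way, at 585 CPM in W22 root hair and 5.91 CPM in B73 root hair (6.63 ± 0.18, adjusted p = 3.45e-21, edgeR). Over the list, 12 of 35 genes were higher and 13 lower in W22 root hair over B73 root hair, beside 28.1% of all genes called higher and 25.9% lower. In B73 wild type root over B73 root of the tissue set 14 were higher and 12 lower, beside 27.4% and 22.1% of all genes. Of the 12 aldehyde dehydrogenases there, 6 were higher and 2 lower, in place of which DESeq2 gave 6 and 5 and upper-quartile scaling 6 and 4. The largest folds in that comparison were those of aldh5 at -3.16 ± 0.21, aldh2 (GRMZM2G125378) at 2.97 ± 0.71 and the fructokinase frk1 at -2.90 ± 0.16.

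Nitrate, the product of the hemoglobin reaction with nitric oxide, is reduced by nitrate and nitrite reductases, of which 3 had a name. The nitrite reductase NIR was at 13.02 ± 1.59 CPM in W22 zmlrl5 root hair and 113 ± 4.49 CPM in W22 wild type root hair (-3.08 ± 0.13, adjusted p = 7.8e-18, edgeR). In the B73 groups its mean ran from 1.36 CPM in wild type root of the zmlrl5 set to 22.4 CPM in aerial seedling, with 6.66 CPM in root hair. W22 wild type root hair was thus the group with the most NIR. NNR1 was at 7.35 ± 2.05 CPM (207 counts) in W22 zmlrl5 root hair and 1.47 ± 1.15 CPM (43 counts) in W22 wild type root hair (2.43 ± 0.42, adjusted p = 4.19e-05, edgeR). The fold of NNR1 was 3.46 without W22 wild type root hair replicate 1 and 1.68 without replicate 2 of that group, called both times. In B73 zmlrl5 root over wild type root they were not called, with adjusted p in edgeR of 0.534 for NIR, 0.712 for NNR1 and 0.85 for NAR, the first at a log2 fold change of 0.37 ± 0.26. NAR had 0 counts in B73 root hair, against 329 in aerial seedling (at least 95.2-fold lower in root hair). In B73 root it averaged 0.233 CPM from 10 counts, against 8.27 CPM in aerial seedling (-5.43 ± 0.52, adjusted p = 3.32e-11, edgeR), and the fold was -7.13 without root replicate 1 and -4.29 without root replicate 2. In W22 wild type root hair it had 16 counts, against 0 in B73 root hair, at least 5.76-fold higher.

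How alike the 4 genes were was described by the Pearson correlation of log2 CPM over the 14 libraries, which fall into the 7 groups above and share their tissue. It was 0.87 between Hb2 and adh2, 0.71 between Hb2 and Hb1 and 0.51 between Hb1 and adh2. Against adh1 it was -0.68 for Hb2, -0.64 for adh2 and -0.23 for Hb1. By this value, on the TMM scale, Hb2 was closer to adh2 than to the other hemoglobin, and the difference between the correlations was not tested.

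Among 2418 other named genes, those most like Hb2 were HP1 (0.968), glct1 (0.968) and NRH2 (0.967). NRH2, for instance, was at 37.4 CPM in W22 wild type root hair, 70.1 CPM in B73 root hair and 8.96 CPM in B73 root. Those most like Hb1 were cys1 (0.947), hdr10 (0.943) and aoc2 (0.936). The hdr10 transcript was at 815 CPM in B73 root hair and at 26.9 to 50.3 CPM in the other 6 groups, high in 1 group alone, as Hb1 was. The nearest to adh1 were LIP (0.975), UCE (0.971) and GPDH1 (0.966), and the nearest to adh2 were CAPIP1 (0.973), cat1 (0.972), a catalase, and mir3 (0.972). Ranked by Spearman's rho, none of the 3 named for Hb2 or for Hb1 stayed among the nearest 3, while 2 of 3 stayed for adh1 and 1 of 3 for adh2.

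Neighbours of the members were taken in RefSeq's order. The nearest matched gene before Hb2, GRMZM2G386674, lies 2 places away. It was at 173.5 CPM in W22 zmlrl5 root hair, 138.8 CPM in W22 wild type root hair, 58.3 CPM in B73 zmlrl5 root and 41.0 CPM in B73 wild type root, and in the tissue set at 20.5 CPM in B73 root hair, 21.1 CPM in B73 root and 97.7 CPM in aerial seedling. It was thus higher in W22 root hair than in B73 root in the zmlrl5 set, where line and tissue cannot be told apart. In the tissue set it was near equal in root hair and root of B73. The gene after Hb2, GRMZM2G168909, was at 12.3 CPM in B73 root hair and 15 CPM in B73 root, and within 11.1 to 17.1 CPM in every group. The gene before Hb1, GRMZM2G067426, was at 4.22 CPM in B73 root hair and 10.4 CPM in B73 root, while the gene after it, aos1, an allene oxide synthase of jasmonate synthesis, was at 804 CPM in B73 root hair, 414 CPM in B73 root and 2475 CPM in aerial seedling. The gene after adh1, GRMZM2G133652, had a log2 fold change of 0.78 in B73 root hair over B73 root, where adh1 was at -0.80.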

How the data were processed

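The values deposited by the authors are raw counts per gene from mRNA libraries. All 14 libraries were counted on the same 39305 gene IDs, and how well reads of W22 match those gene models was not tested. The tools named, without versions, are TopHat2, HTSeq and DESeq, per the submitters' processing notes. The sources used here give neither the genome build nor the strand setting, so reads of antisense or overlapping genes, and of close copies such as adh1 and adh2, may be shared, split or lost. HTSeq's summary entries, present in the tissue set, held 3.58% to 6.71% of reads outside genes and 1.91% to 2.58% ambiguous reads and were left out. Counts were tested with edgeR 4.0.16 (R 4.3.3): filterByExpr (minimum count 10, minimum total 15), TMM, glmQLFit and glmQLFTest, two-sided, on group means, with Benjamini-Hochberg adjustment over all genes tested and a call at adjusted p under 0.05. The tissue set and the zmlrl5 set were fitted separately, and comparisons across them in a fit of all 14 libraries. CPM use the factors of that last fit, so a ratio of CPM means can differ slightly from the fitted fold. The SE is the absolute log2 fold change divided by the square root of F. Log2 CPM for correlations used a prior count of 2. The script was tested on simulated counts. Whether the 2 libraries of a group are separate plants is not given, and p-values then measure only how these samples spread.

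Names came from a RefSeq gene table (Zm-B73-REFERENCE-NAM-5.0), which matched 18997 of 39305 IDs and named 2833. Its coordinates were used only to order genes along a chromosome when neighbours were taken. Some names belong to several IDs, which are then given. The members, lists and tests were chosen with earlier results of these data known. In each comparison the 3 list genes with the largest called folds were named, and for each member the 3 named genes with the highest correlation. Others were picked after their values were seen, as stated beside them. Alternatives were DESeq2 1.42.0, upper-quartile scaling, no filter, a replicate block, a fit of all 14 libraries, CPM without TMM, and each library left out, the last also for the list genes, added after their values were seen.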

Additional observations from a re-analysis of the deposited data

Results flagged for a closer look

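For adh1, both libraries of W22 zmlrl5 root hair lay below both of W22 wild type root hair (log2 fold change -0.32), while both libraries of B73 zmlrl5 root lay above both of B73 wild type root (0.15, not called). The 2 effects differed by -0.47 ± 0.11 (SE) on the log2 scale. The value drew attention because the 2 effects run in opposite directions in all libraries, and the difference was not tested, since the gene was chosen with these values known.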

How the results depend on the processing

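Of 280 member folds recomputed under the alternatives, 273 kept their direction or stayed uncalled and kept their side of the threshold, and 7 lost their call. CPM without TMM is not among these folds. On that scale adh2 overlapped between B73 root hair and aerial seedling, and some group orders of Hb1 and adh1 turned, as given above. In the fit of all 14 libraries, W22 zmlrl5 root hair over wild type root hair gave -0.59 for Hb1, -0.36 for adh1 and 0.31 for adh2, none called, and 3234 genes called in place of 5703. In that fit B73 zmlrl5 root over wild type root gave 955 genes in place of 2114. With 1 library left out, Hb1 in W22 zmlrl5 root hair ranged from -0.66 to -0.54, adh1 in W22 wild type root hair over B73 root hair from -0.59 to -0.42, and the genes called in B73 zmlrl5 root over wild type root from 1133 to 1453. Without B73 wild type root replicate 1 these were 440 higher and 693 lower, and without B73 zmlrl5 root replicate 1 504 higher and 757 lower. The fits without 1 library have fewer samples. For the other changes the cause was not tested.

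Upper-quartile scaling moved the median of all genes to -0.46 in B73 root hair over root, -0.51 over aerial seedling, and 0.20 in B73 root over aerial seedling. Replicate numbers did not pair the samples: differences between replicates correlated at -0.17 in B73 root hair over root and at -0.07 to 0.00 in the other comparisons. A replicate block called 18230 genes in B73 root hair over root, a crossed replicate block, chosen after seeing the data, 18745, and the block changed no member's call. Nitrate and nitrite reductase genes called in B73 wild type root over B73 root were 2 with DESeq2 or upper-quartile scaling, in place of 1. Depth limits Hb2 in B73 root, with 2 and 21 counts.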
